A study of Mus musculus with 53 samples.

Results

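Ezh2-null mouse embryonic stem (ES) cells were compared with wild-type ES cells on day 8 without LIF, a cytokine of the culture medium that keeps them from differentiating. The comparison was chosen by the sample titles and holds 4 of the study's 53 arrays: 2 of Ezh2-null cells and 2 of CJ7, a wild-type ES line. The titles name no line and no allele for the Ezh2-null cells, so genotype and line cannot be told apart here. Each array measured total RNA of a whole culture on the Affymetrix mouse platform. The cultures had been kept on a layer of feeder fibroblasts, which the protocol removed in part by letting them attach to plates. The same genotypes at day 0 (7 wild-type and 6 Ezh2-null arrays), day 2 (4 and 4) and day 6 (5 and 5) set day 8 in its time course. Wild type at these days mixed lines: day 0 held 3 arrays of E14tg1, 2 of J1 and 2 of CJ7, day 2 held 2 of J1 and 2 of CJ7, and day 6 held 3 of J1 and 2 of CJ7. The question was how cells without Ezh2 differ from wild type late in differentiation.

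Polycomb repressive complex 2 (PRC2) places methyl groups on lysine 27 of histone H3 through its enzyme Ezh2, and so helps to hold many developmental genes silent. ES cells that lose LIF leave the pluripotent state and form derivatives of all germ layers, and within days some of their mesoderm gives rise to primitive blood. The first red cells of the mouse embryo carry embryonic globins, and the adult globin chains come later in development.

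The 13807 genes tested differed little in their centre, with a median log2 difference of 0.03 (Ezh2-null minus wild type), and all log2 differences are on the log2(signal + 32) scale, which understates the change of dim genes. In limma with Benjamini-Hochberg adjustment, 108 genes were called higher (0.782% of the genes tested) and 39 lower (0.282%), together 147 (1.06%), where a call needs an adjusted p under 0.05 and at least a 2-fold change. These shares and the median of 0.03 are those to set beside each list count and list median below. The spread was pooled over all 15 groups, some of which mix wild-type lines, so it is not that of the 4 day-8 arrays alone. Since the labels do not tell what a biological replicate repeats, the p-values measure only the spread between arrays within these groups. The 2 wild-type arrays lay closer to each other (median absolute log2 difference 0.093, 2 genes apart by 2-fold or more) than the 2 Ezh2-null arrays (0.185 and 33 genes). Pairs of arrays of unlike genotype were apart by 2-fold or more in 215 to 324 genes. The 2 arrays of a genotype lay all on the same side of the other 2 in 7476 genes (54.1%), 4374 of them with Ezh2-null cells above (31.7%) and 3102 with them below (22.5%). Without wild-type replicate 1 the counts fell to 30 higher and 21 lower, and without Ezh2-null replicate 2 to 65 and 18. Of the 108 genes called higher 28 were also called without each of the 4 arrays in turn, as were 13 of the 39 called lower. In a bulk culture, fewer cells of a type and less RNA per cell cannot be told apart, which holds for every gene below.

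**Figure D1:**
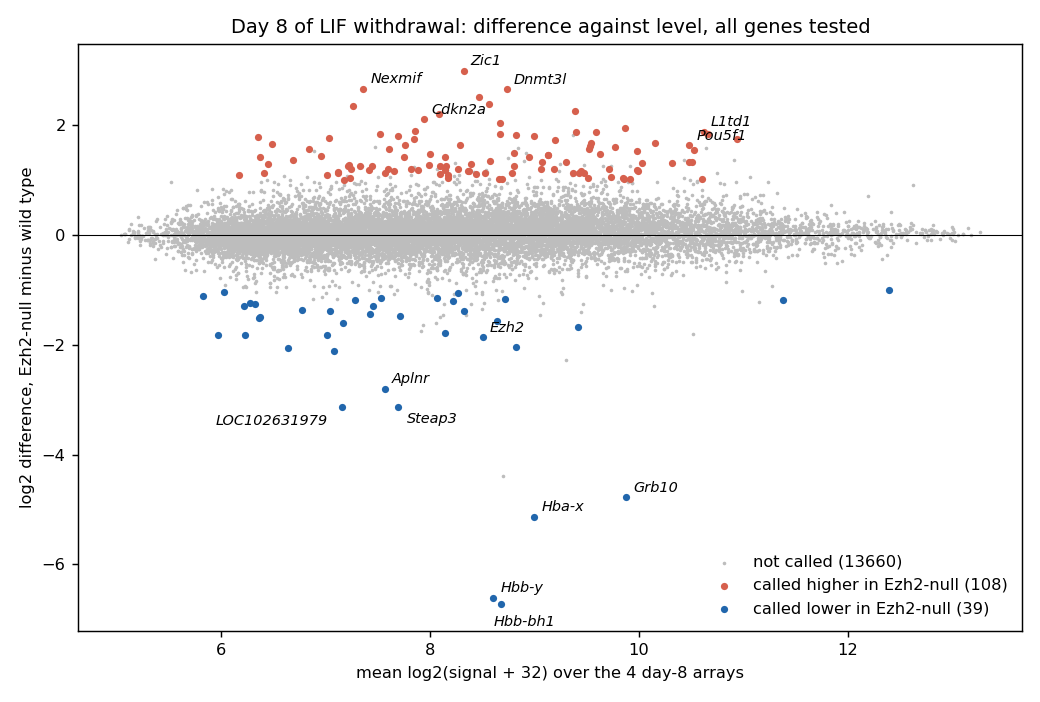
The log2 difference at day 8 (Ezh2-null minus wild type, vertical axis) is plotted against the mean log2(signal + 32) over the 4 day-8 arrays for all 13807 genes tested; each point is a gene and coloured points passed the call rule. The embryonic globins Hbb-bh1, Hbb-y and Hba-x and the imprinted gene Grb10 lie furthest down, from -4.77 to -6.72, while no gene lies above 2.99.

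The targeted gene came out as labelled. Ezh2 signal was 652.7 and 665.8 in the wild-type arrays and 162.1 and 155.0 in the Ezh2-null arrays. Both Ezh2-null arrays lay below both wild-type arrays, and the log2 difference was -1.86 ± 0.23 (SE), adjusted p = 7.7e-07. Ezh2 was the 1 called gene among 12 tested PRC2 subunits and partners, whose median difference was 0.12. Eed, which binds the methylated histone and is needed by the complex, gave 1228.3 and 1285.2 in wild type against 1912.5 and 1988.0, a difference of 0.62 ± 0.21 that missed the threshold (adjusted p = 0.12). Suz12 differed by 0.23 ± 0.30 (adjusted p = 0.88) and the paralog Ezh1 by -0.13 ± 0.15 (adjusted p = 0.86). Jarid2, a factor that helps recruit PRC2, gave 968.6 and 1123.4 against 2011.0 and 2148.6. Its difference of 0.97 ± 0.24 had an adjusted p of 0.013 and stayed just under 2-fold. Of 17 subunits of PRC1, the Polycomb complex that acts with PRC2, only Phc1 passed the rule. Phc1 gave 816.7 and 970.5 in wild type and 2065.6 and 2497.9 in Ezh2-null cells, higher by 1.32 ± 0.22, adjusted p = 0.00018, and it was called without each day-8 array.

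The embryonic globins made up the largest differences of the comparison. Hbb-bh1, an embryonic beta-like chain, gave 4462.8 and 3891.6 in the wild-type arrays and 11.5 and 4.4 in the Ezh2-null arrays. Hbb-y, its neighbour in the beta-globin cluster, gave 4104.1 and 3519.5 against 6.2 and 8.6. Hba-x, the embryonic alpha-like chain zeta, gave 3275.2 and 2733.4 against 47.9 and 61.8. In all of these genes the wild-type arrays were far above the array median of about 62 signal units, and the Ezh2-null arrays were near or below it. The log2 differences were -6.72 ± 0.91 for Hbb-bh1 (adjusted p = 4.7e-06), -6.61 ± 0.60 for Hbb-y (adjusted p = 4e-10) and -5.13 ± 0.63 for Hba-x (adjusted p = 7.7e-07), and each was called without each day-8 array. The other 2 probe sets of Hbb-bh1 and of Hbb-y were also lower by over 2-fold, although beta-like chains are alike enough that probes may detect more than the gene they are named for. Adult alpha-globin was below the array median on all 4 arrays, so a difference could not be read from it. Hba-a1 gave 34.9 and 16.1 against 15.6 and 24.4, and Hba-a2 gave 27.6 and 43.7 against 39.1 and 24.4, with overlapping groups. Adult Hbb-b2 was too dim to be tested, between 2.7 and 20.8 on the 4 arrays.

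The promoters of 2 of these globins and of Alas2, which makes the first enzyme of heme synthesis in red cells, are shown because the 3 genes fell together. Each line gives the 250 bases before the transcription start from RefSeq (GRCm38.p6), read 5′ to 3′ on the gene's strand. Capitals mark TGATAA and AGATAA (letters bound by GATA factors), CCACCC (the CACCC box), CCAAT and TATAA, searched on both strands.
Hbb-y, chr7:103853208-103853457, minus strand: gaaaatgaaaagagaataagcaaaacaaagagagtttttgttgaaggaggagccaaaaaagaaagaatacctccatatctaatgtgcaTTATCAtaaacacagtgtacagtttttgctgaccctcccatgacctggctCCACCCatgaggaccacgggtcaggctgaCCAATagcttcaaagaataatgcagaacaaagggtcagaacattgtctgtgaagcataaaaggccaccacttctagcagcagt
Hba-x, chr11:32276350-32276599, plus strand: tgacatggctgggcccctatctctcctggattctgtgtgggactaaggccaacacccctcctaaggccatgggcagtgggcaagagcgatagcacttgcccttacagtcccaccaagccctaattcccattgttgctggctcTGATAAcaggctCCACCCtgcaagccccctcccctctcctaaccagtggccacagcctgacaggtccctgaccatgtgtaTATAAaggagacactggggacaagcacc
Alas2, chrX:150547167-150547416, plus strand: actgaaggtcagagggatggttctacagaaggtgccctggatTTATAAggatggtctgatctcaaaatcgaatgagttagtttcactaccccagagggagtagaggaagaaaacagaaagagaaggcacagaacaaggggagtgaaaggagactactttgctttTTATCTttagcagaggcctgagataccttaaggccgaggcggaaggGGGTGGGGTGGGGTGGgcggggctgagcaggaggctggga
Each of the 3 windows holds a GATA motif, which 17.0% of the 27025 promoter windows of the table do. Each also holds CCACCC, found in 27.7% of all windows, and Alas2 holds it 3 times in overlapping form. CCAAT stands in 34.5% of all windows and here in Hbb-y alone, and TATAA stands in 23.5% and here in Hba-x and Alas2. A match is a description of the letters and not a bound site.

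Regulators and enzymes of red cells were lower as well, from much lower levels. Alas2 gave 103.6 and 70.5 in wild type against 1.4 and 1.7, a log2 difference of -1.81 ± 0.26, adjusted p = 1.7e-05. Of 20 tested erythroid and heme genes 5 fell and none rose, with a list median of -0.47 against 0.03 over all genes. Beside Alas2 these were Lmo2 (-1.39 ± 0.26) and Tal1 (-1.26 ± 0.25), partners in the complex that specifies blood, Zfpm1 (-1.38 ± 0.25), the cofactor of GATA1, and Nfe2 (-1.23 ± 0.27), a factor of red cells and platelets. Their adjusted p-values lay between 1.7e-05 and 0.0043. Gata1 gave 103.9 and 102.3 against 77.2 and 87.8 (-0.24 ± 0.18, adjusted p = 0.68), and Klf1 92.7 and 66.9 against 45.1 and 39.8 (-0.58 ± 0.17, adjusted p = 0.066), so neither master regulator was called. In the neuronal stem cells of the study Gata1 gave 101.8 and 90.4 and Klf1 98.9 and 105.7. Wild-type signal at day 8 was thus hardly above that of these cells, and the missing calls say little about either factor. Both Ezh2-null arrays lay below both wild-type arrays in 15 of the 20 genes, a pattern seen in 22.5% of all genes tested. The filter favours this pattern, since a gene such as Alas2 entered though no Ezh2-null array put it above the array median. Such entry through the arrays of 1 genotype was possible in every list, so these counts are descriptions. A further 6 list members with a probe set were below the filter and are not counted. The count of 5 was 3 without wild-type replicate 1 and 2 without Ezh2-null replicate 2; Alas2 and Lmo2 were called in each case. Pf4, a platelet factor outside the lists, gave 132.9 and 86.1 against 9.7 and 26.7 and was called lower (adjusted p = 0.0078), a call lost without wild-type replicate 1 or Ezh2-null replicate 1.

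**Figure D2:**
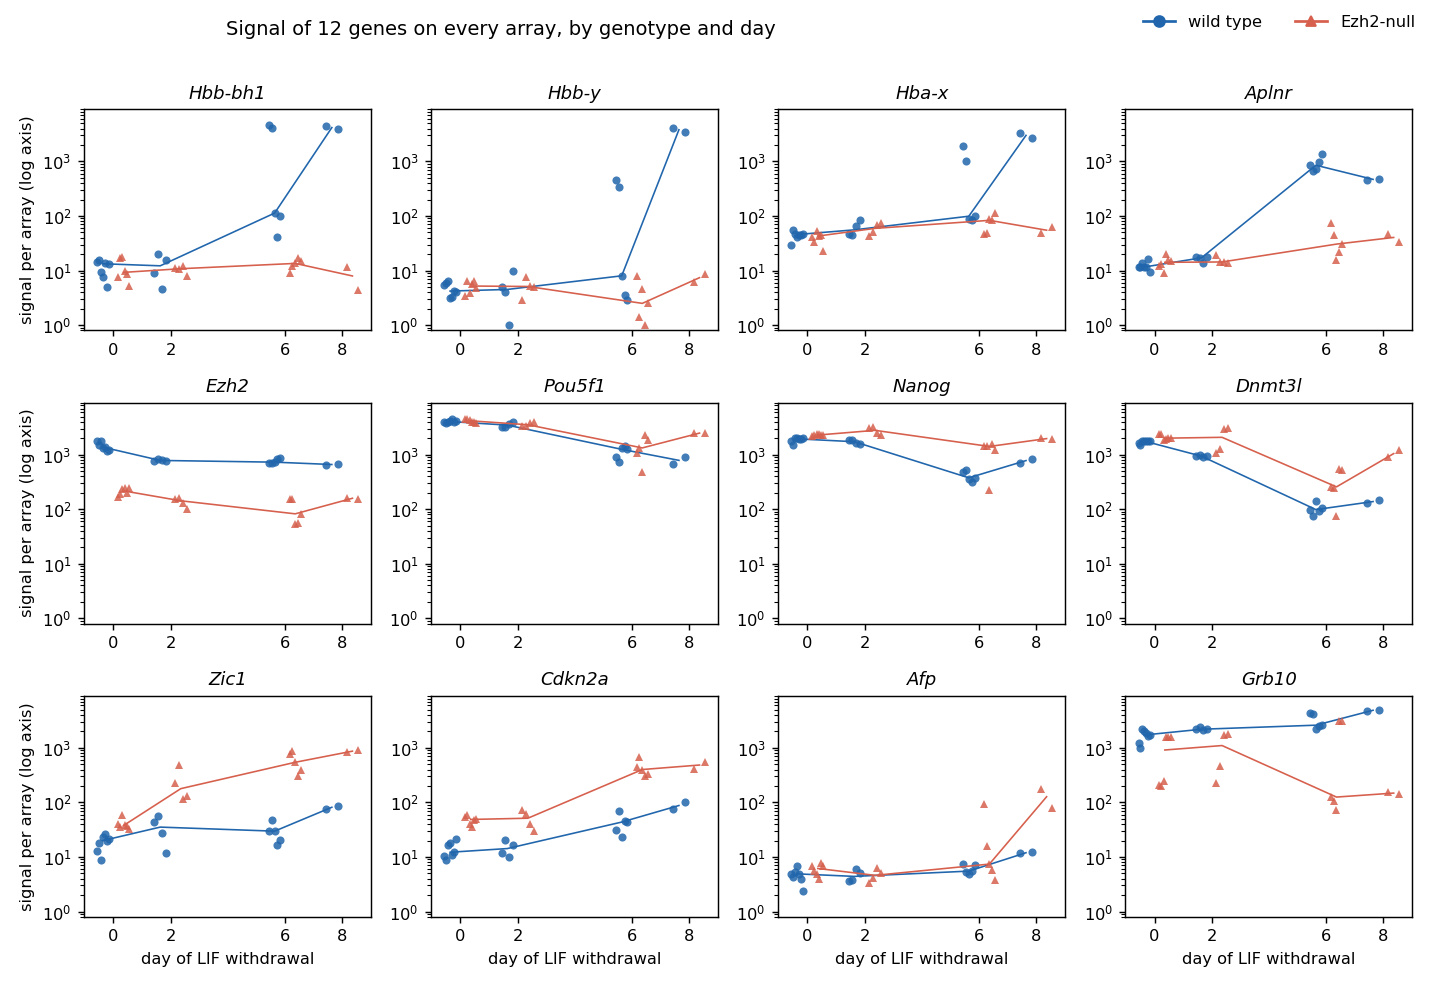
Signal of 12 genes on every wild-type (circles) and Ezh2-null (triangles) array is plotted on a log axis by day of LIF withdrawal, and lines join the group medians. The globins are high in both wild-type arrays at day 8 and in only 2 of 5 at day 6, and Grb10 splits the Ezh2-null arrays of days 0, 2 and 6 into a low and a high group.

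The time course of the globins differed between wild-type arrays at day 6. Hbb-bh1 gave 4661.6 and 4059.2 in J1 replicates 1 and 2 at day 6, but 113.0 in J1 replicate 3 and 41.3 and 98.3 in the CJ7 arrays. At day 8 the CJ7 arrays were at the level of those first J1 arrays. Hba-x followed the same split at day 6, with 1931.5 and 1005.4 against 86.1 to 99.0. Hbb-y was lower in the J1 arrays at day 6, at 458.4 and 335.8, than in CJ7 at day 8. No Ezh2-null array reached 20 signal units for Hbb-bh1 at any day, the highest being 17.9, and the highest for Hbb-y was 8.6.

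Some genes of blood and endothelial progenitors and of their mesoderm fell as well. Of 30 tested blood and endothelial genes 5 fell and none rose, where 0.282% of all genes tested were called lower. The list median was -0.20, against 0.03 over all genes. Kdr, the VEGF receptor of blood and vessel precursors, gave 670.8 and 639.2 against 164.9 and 238.3, a difference of -1.57 ± 0.25, adjusted p = 5.9e-05. Sox18, a factor of vessels, gave 162.3 and 182.5 against 33.4 and 4.5 (-2.06 ± 0.36, adjusted p = 0.00032), a call lost without Ezh2-null replicate 2. Itga2b, the integrin of early blood progenitors, fell by 1.06 ± 0.17 on the log2 scale (adjusted p = 8.1e-05), Fli1 by 1.37 ± 0.31 (adjusted p = 0.0067) and Sox17 by 2.04 ± 0.56 (adjusted p = 0.035). Cd34 had a difference of -0.95 ± 0.16 (adjusted p = 0.00024) and stayed under 2-fold. Tek, a receptor of mature endothelium, gave 162.1 and 127.8 against 80.7 and 83.1 (-0.63 ± 0.22, adjusted p = 0.13). Tie1, its relative, was too dim to be tested and gave 34.0 and 32.6 against 10.5 and 7.2. The count of 5 was 2 without wild-type replicate 1 or Ezh2-null replicate 2 and 3 without Ezh2-null replicate 1.

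Among 23 tested genes of primitive streak and early mesoderm 4 fell and none rose, where 0.282% of all genes tested were called lower. The list median was -0.30 at day 8, against 0.03 over all genes, and -1.2 at day 6. Aplnr, the apelin receptor of early mesoderm, gave 465.3 and 471.9 against 47.7 and 33.1, a difference of -2.80 ± 0.21 with the smallest adjusted p of the comparison, 1.3e-12. It was also high in all 5 wild-type arrays at day 6, from 667.4 to 1375.5, where Ezh2-null arrays gave 15.7 to 74.7. Lhx1, a homeobox factor of the streak and intermediate mesoderm, gave 86.2 and 136.0 against 13.5 and 2.8 (-1.82 ± 0.28, adjusted p = 3.7e-05). Kdr and Foxf1 (-1.29 ± 0.27, adjusted p = 0.0033), a factor of lateral mesoderm, were the others. Streak genes proper were already low in both genotypes at day 8: Mixl1 gave 79.5 and 123.1 against 29.2 and 35.2 (adjusted p = 0.32), and Eomes a mean of 153.1 (SD 35.5, n = 2) against 106.1 (SD 3.3, n = 2). Without wild-type replicate 1 or Ezh2-null replicate 2 the list count was 3.

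None of 28 tested cardiac and muscle genes was called at the adjusted threshold with a 2-fold change. Acta1, skeletal actin, gave 2617.0 and 2784.2 against 692.0 and 811.7, yet the pooled spread of this gene was large (-1.80 ± 0.82, adjusted p = 0.32). Hand2, a factor of heart and limb, differed by -1.46 ± 0.43 (adjusted p = 0.053), and Gata6 by -0.95 ± 0.26 (adjusted p = 0.035). With only the 4 day-8 arrays in the fit, the count for this list was 3 lower.

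Calls among endoderm genes went in both directions, while more of the genes lay lower than higher. Of 27 visceral and extraembryonic endoderm genes tested, 2 fell and 1 rose (list median -0.23). Both Ezh2-null arrays lay below both wild-type arrays in 16 of the 27 and above them in 5, against 22.5% and 31.7% of all genes tested. Cited1, a transcriptional coactivator of yolk sac and placenta, gave 283.5 and 219.8 against 48.5 and 20.3 (-2.12 ± 0.30, adjusted p = 1.5e-05). Ctsh, a cathepsin, gave 571.7 and 426.1 against 180.9 and 77.2 (-1.79 ± 0.48, adjusted p = 0.032), and its call was lost without either wild-type array and without Ezh2-null replicate 2. Afp, the alpha-fetoprotein of visceral endoderm and yolk sac, went the other way, with 11.7 and 12.2 in wild type and 176.2 and 77.9 in Ezh2-null cells (1.78 ± 0.27, adjusted p = 2.7e-05). Other secreted proteins of this tissue did not rise with it: Ttr gave 486.7 and 327.1 against 199.5 and 50.6 (adjusted p = 0.20) and Alb 25.4 and 29.6 against 36.1 and 48.8 (adjusted p = 0.52). Among 22 definitive endoderm and gut genes (list median -0.35) both Ezh2-null arrays lay below in 13 and above in 2. Sox17, a factor of endoderm as well as of vessels, was the only call among these 22 genes. It gave 892.2 and 882.5 against 275.9 and 131.4, and no 1 array could be left out without losing its call.

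Of the lists, core and naive pluripotency held the most rises. Of 30 tested core and naive pluripotency genes 10 rose and none fell, and the list median was 1.08 against 0.03 over all genes. Both Ezh2-null arrays lay above both wild-type arrays in 28 of the 30, against 31.7% of all genes tested. Pou5f1, the core factor of pluripotent cells, gave 684.0 and 887.0 in wild type against 2454.2 and 2515.3, a difference of 1.63 ± 0.32, adjusted p = 0.0011, and lost its call without wild-type replicate 1 (adjusted p = 0.074). Nanog gave 713.3 and 843.1 against 2024.9 and 1912.4 (1.31 ± 0.37, adjusted p = 0.046), and its call was lost without any 1 of the 4 arrays. Sox2 gave 1060.5 and 1284.4 against 2641.7 and 3522.7, but its difference of 1.36 ± 0.44 missed the threshold (adjusted p = 0.095).

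Other rises of this list were as large or larger. Dnmt3l, the catalytically inactive partner of the de novo DNA methyltransferases, gave 129.7 and 146.4 against 889.0 and 1202.5 (2.65 ± 0.39, adjusted p = 2.2e-05). Nr0b1, an orphan nuclear receptor of ES cells, gave 96.8 and 137.9 against 879.3 and 751.5 (2.51 ± 0.49, adjusted p = 0.0012), a call lost without wild-type replicate 1. Fgf4, the growth factor that ES cells secrete and that drives their exit from the naive state, gave 117.6 and 150.0 against 839.3 and 829.5 (2.39 ± 0.29, adjusted p = 5.9e-07). Of the 3 other probe sets of Fgf4 only 2 were higher as well, 1 of them by 2-fold or more. Dppa4 gave 430.0 and 514.5 against 1435.9 and 1539.5, and had the smallest adjusted p of the group, 5.7e-10 in limma. Its chromosomal neighbour and partner Dppa2 rose by 1.88 ± 0.37, Esrrb by 1.87 ± 0.43, Utf1 by 1.67 ± 0.33 and Tcl1 by 1.64 ± 0.34. Of the 2 other probe sets of Esrrb 1 lay below 0 (-0.35), and the mean of its probe sets gave 0.83 (adjusted p = 0.12). The list count was 3 without wild-type replicate 1 and 7 or 8 without any other day-8 array; Dppa4, Fgf4 and Dnmt3l were called in each case.

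Levels at day 8 can be set beside those of undifferentiated cells. Pou5f1 signal was 4089.7 ± 229.6 (SD, n = 7) in wild type at day 0 and 785.5 ± 143.5 (n = 2) at day 8, against 2484.8 ± 43.2 (n = 2) in Ezh2-null cells at day 8. Nanog gave 1874.0 ± 197.6 (n = 7) in wild type at day 0 and 1968.6 ± 79.5 (n = 2) in Ezh2-null cells at day 8. Both Ezh2-null arrays of day 8 lay within the range of the wild-type arrays of day 0. They lay below every Ezh2-null array of day 0, which gave 2239.9 to 2429.4. For Pou5f1 the Ezh2-null day-8 arrays were above every Ezh2-null array of day 6, which gave 481.4 to 2303.4. Dnmt3l was likewise above all Ezh2-null arrays of day 6 (75.9 to 542.7), as was Fgf4 (81.8 to 278.6). At day 6 Nanog gave 222.8 in Ezh2-null replicate 3 and 1209.6 to 1536.6 in the others, against 316.3 to 522.8 in wild type. The pluripotency list had a median genotype difference of 0.95 at day 6 and 1.08 at day 8. Wild-type arrays were also higher at day 8 than at day 6 for Nanog (713.3 and 843.1) and Fgf4 (117.6 and 150.0, against 56.1 to 78.8). For Pou5f1 and Dnmt3l the wild-type arrays of these days overlapped.

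Primed epiblast genes mark the state that follows the naive one. Of 12 tested 2 rose, Foxd3 (1.36 ± 0.30, adjusted p = 0.0045) and Zic2 (1.29 ± 0.31, adjusted p = 0.0095), and the list median was 0.80. Both Ezh2-null arrays lay above both wild-type arrays in 10 genes and below them in 1, against 31.7% and 22.5% of all genes tested. Otx2 gave 179.4 and 300.4 against 682.2 and 853.2 (adjusted p = 0.16), and Fgf5 146.9 and 240.0 against 264.7 and 371.3 (adjusted p = 0.79). Foxd3 was lost without wild-type replicate 1 or Ezh2-null replicate 2, and Zic2 without any 1 of the 4 arrays.

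Among 13 genes of DNA methylation Dnmt3l and Tet1 rose (list median 0.51). Tet1, which oxidises methylated cytosine, gave 373.2 and 523.7 against 1652.7 and 1950.6 (1.95 ± 0.38, adjusted p = 0.0013), a call lost without wild-type replicate 1. The de novo methyltransferases differed by 1.16 ± 0.36 for Dnmt3a (adjusted p = 0.081) and 0.97 ± 0.31 for Dnmt3b (adjusted p = 0.09). Of 24 germline and meiosis genes 3 rose and none fell (list median 0.57). Mael, a factor of the piRNA pathway, gave 34.8 and 43.1 against 219.1 and 200.8 (1.77 ± 0.40, adjusted p = 0.0065). Morc1, which silences transposons in male germ cells, rose by 1.83 ± 0.46 (adjusted p = 0.016) and the meiotic chromosome axis gene Hormad1 by 1.10 ± 0.25 (adjusted p = 0.0062). None of the 3 kept its call without any 1 of the 4 arrays.

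**Figure D3:**
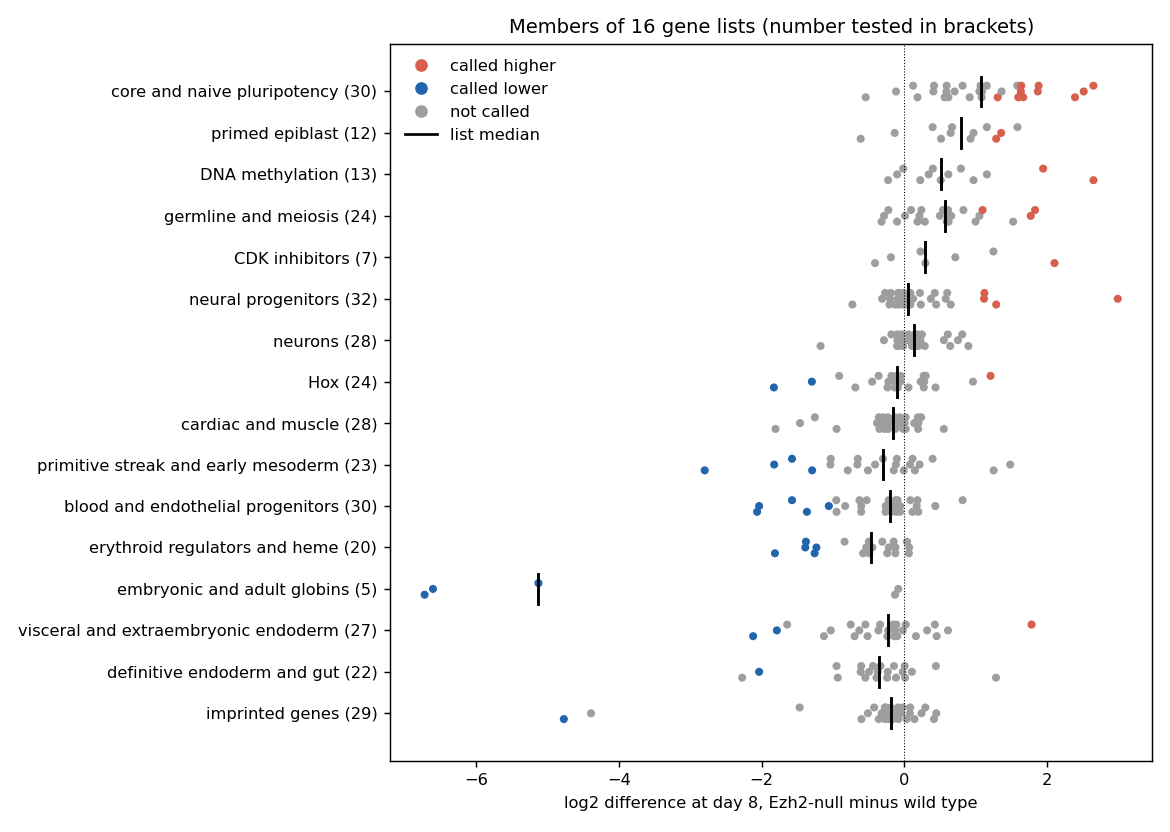
Log2 differences at day 8 (Ezh2-null minus wild type, horizontal axis) of the tested members of 16 gene lists are shown as points, coloured where called, with a bar at the list median. Pluripotency genes lie to the right (median 1.08, 10 of 30 called higher), embryonic globins far to the left, and neuron, cardiac and most Hox genes around 0.

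Zic1 had the largest rise of all genes. This zinc finger factor of the neural plate and dorsal neural tube gave 76.4 and 86.6 in wild type against 826.6 and 913.8, a difference of 2.99 ± 0.35, adjusted p = 3.2e-07. The difference preceded day 8: it was 1.88 ± 0.25 at day 2 and 3.25 ± 0.22 at day 6, when Ezh2-null arrays gave 299.5 to 867.0 and wild-type arrays 16.7 to 47.2. Of 32 neural progenitor genes 4 rose and none fell, with a list median of 0.04, close to that of all genes. The others were Zic2 and its close neighbour Zic5 (1.12 ± 0.30, adjusted p = 0.027), and the forebrain and eye field gene Lhx2 (1.12 ± 0.20, adjusted p = 0.00037). Zic1 alone was called without each day-8 array; the list count was 1 without Ezh2-null replicate 1 and 2 without any other. No gene of the 28 of neurons or the 16 of radial glia was called with a 2-fold change, although the glial Fabp7 was lower at an adjusted p of 0.0077 with a change under 2-fold (-0.84 ± 0.19).

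Hox genes, textbook targets of Polycomb, did not move as a block. Of 24 tested, Hoxd13 rose and Hoxb2 and Hoxb3 fell, and the list median was -0.10. Hoxd13, at the distal end of its cluster, gave 98.5 and 91.9 against 299.7 and 228.0 (1.21 ± 0.18, adjusted p = 1.7e-05). Hoxb2, which patterns the hindbrain, gave 179.9 and 246.8 against 39.8 and 33.3 (-1.83 ± 0.36, adjusted p = 0.0012), and Hoxb3 75.6 and 94.5 against 23.5 and 8.7 (-1.30 ± 0.24, adjusted p = 0.00061). Hoxb2 lost its call without wild-type replicate 2 and Hoxb3 without Ezh2-null replicate 2. With the mean of all probe sets neither Hoxb3 (-0.87) nor Hoxd13 (0.82) reached 2-fold. Of 51 other developmental transcription factors Tal1 alone was called.

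Cdkn2a, which encodes the cell cycle inhibitors p16 and p19ARF and is a known Polycomb target, gave 74.8 and 100.6 in wild type and 413.5 and 555.1 in Ezh2-null cells. Its difference was 2.10 ± 0.31, adjusted p = 1.7e-05, and was called without each day-8 array. The difference was 2.62 at day 6, with Ezh2-null arrays from 306.3 to 673.7 and wild-type arrays from 23.5 to 69.2. The nearby Cdkn2b gave 529.4 and 510.9 against 1192.5 and 1374.1 but missed the threshold (1.25 ± 0.37, adjusted p = 0.059). Of 7 CDK inhibitors only Cdkn2a was called. Of 27 proliferation genes Ccne1, cyclin E1, rose (1.05 ± 0.20, adjusted p = 0.0008), a call lost without Ezh2-null replicate 2, and the list median was 0.05.

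The promoters of Zic1 and Cdkn2a are shown because PRC2 is known to occupy CpG-rich promoters of silent genes. Capitals mark each CpG in the 250 bases before the start (RefSeq, GRCm38.p6, 5′ to 3′ on the gene's strand).
Zic1, chr9:91365769-91366018, minus strand: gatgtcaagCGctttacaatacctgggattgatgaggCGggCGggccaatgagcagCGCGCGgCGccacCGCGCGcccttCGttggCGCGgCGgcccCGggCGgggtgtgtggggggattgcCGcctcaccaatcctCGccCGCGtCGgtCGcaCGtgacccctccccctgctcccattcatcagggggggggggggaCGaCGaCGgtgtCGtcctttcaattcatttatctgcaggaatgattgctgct
Cdkn2a, chr4:89294620-89294869, minus strand: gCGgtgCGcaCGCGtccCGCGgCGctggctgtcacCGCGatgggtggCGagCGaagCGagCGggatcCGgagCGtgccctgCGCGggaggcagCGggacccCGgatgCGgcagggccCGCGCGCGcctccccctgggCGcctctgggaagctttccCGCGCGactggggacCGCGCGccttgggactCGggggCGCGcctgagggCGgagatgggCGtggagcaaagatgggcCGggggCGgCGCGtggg
Zic1 holds 27 CpGs and Cdkn2a 40, which is 0.99 and 1.08 times the number their base composition gives. In Hbb-y and Hba-x, shown above for their fall, this ratio was 0.09 and 0.05. Such picked genes do not show how genes called higher and lower compare. A ratio of 0.6 or more was found in 44 of 87 genes called higher that had a window in the table (50.6%), and in 7029 of 11074 genes tested (63.5%). For the genes called lower this check is void, since only 26 of 39 had a window.

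Several of the largest rises belong to none of these groups. Nexmif, an X-linked gene of neurite outgrowth, gave 31.1 and 35.7 against 241.2 and 592.4 (2.66 ± 0.36, adjusted p = 4.7e-06). The 3 other probe sets of Nexmif were higher as well, but only 1 of them by 2-fold or more. Tcf15, a basic helix-loop-helix factor of somites and of the epiblast, gave 147.8 and 194.4 against 718.8 and 873.8 (2.03 ± 0.39, adjusted p = 0.0012). Slc7a3, a transporter of cationic amino acids, gave 244.6 and 307.5 against 1384.7 and 1478.8 (2.26 ± 0.42, adjusted p = 0.0007). The muscle genes Mymx, a small protein needed for myoblast fusion, and Mylpf, a fast skeletal myosin light chain, were among them too. Mymx gave 35.5 and 36.3 against 441.3 and 220.0 (2.35 ± 0.56, adjusted p = 0.011) and Mylpf 85.2 and 105.4 against 634.7 and 473.3 (2.19 ± 0.50, adjusted p = 0.0069). Both lost their calls without either wild-type array and without Ezh2-null replicate 1. L1td1, an RNA-binding protein of ES cells, rose by 1.88 ± 0.36 and the zinc finger gene Zfp936 by 1.89 ± 0.26. Tcf15 and L1td1 lost their calls without wild-type replicate 1. Of the 108 genes called higher 80 were in no list, and of the 39 called lower 16.

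Grb10, an imprinted gene for an adaptor that dampens insulin and growth factor signalling, had the largest fall outside the globins, but its low signal did not come with day 8. It gave 4783.1 and 4989.7 in wild type against 154.2 and 142.1 (-4.77 ± 1.09, adjusted p = 0.0069). Ezh2-null arrays fell into separate levels at every earlier day: 198.5 to 251.9 in replicates 1 to 3 and 1575.1 to 1594.2 in replicates 4 to 6 at day 0, 224.4 and 469.3 against 1735.0 and 1765.2 at day 2, and 74.1 to 125.3 against 3044.2 and 3140.9 at day 6. No wild-type array of days 0 to 8 was below 1003.4. The day-8 Ezh2-null arrays matched the low ones. The split of the earlier Ezh2-null arrays is part of the pooled spread. The call was lost without any 1 of the 4 day-8 arrays, although the difference stayed between -4.82 and -4.72. The non-coding RNA LOC102631979, which lies next to Grb10 in RefSeq, gave 392.6 and 387.3 against 13.3 and 18.8 (-3.14 ± 0.55, adjusted p = 0.00032) and split the Ezh2-null arrays of each earlier day in the same way, at day 6 with 10.3 to 13.9 against 156.1 and 159.2. Nnat, another imprinted gene, gave 1752.8 and 1999.8 against 72.0 and 47.2 at day 8, which was not called (-4.39 ± 1.30, adjusted p = 0.057). Its Ezh2-null arrays of day 6 stood at 48.7 to 154.3 and at 4433.3 and 4973.4, but at day 0 wild-type arrays differed among themselves as well, from 20.8 to 338.9. Grb10 was the 1 call among 29 imprinted genes tested, and the list median was -0.19.

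Steap3, a ferrireductase of red cell precursors, passed the rule through a single array. It gave 40.2 and 5116.1 in the wild-type arrays against 36.3 and 39.4 (-3.13 ± 0.71, adjusted p = 0.0064). Without wild-type replicate 2 the difference was -0.05, and the other 2 probe sets of the gene differed by 0.03 and 0.01. Slc25a4, a mitochondrial ADP/ATP carrier, gave 10707.9 and 5372.7 against 3922.4 and 3630.9 and was called lower at the edge of 2-fold (adjusted p = 0.00037). Without wild-type replicate 1 its difference was -0.51 (adjusted p = 0.29), and the call was also lost without Ezh2-null replicate 2.

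None of 36 Wnt pathway genes was called (list median 0.00), although Fzd2 was lower under 2-fold at an adjusted p of 0.029. Of 32 BMP, Nodal and TGF-beta genes Smad7, an inhibitory Smad, rose (1.02 ± 0.21, adjusted p = 0.0025). Of 39 FGF, Notch and Hedgehog genes Fgf4 and Etv5, a transcription factor induced by FGF signalling, rose. Etv5 gave 782.3 and 876.8 against 2457.4 and 2509.9 (1.55 ± 0.35, adjusted p = 0.0067), lost without any 1 array, and Smad7 was lost without wild-type replicate 1 or Ezh2-null replicate 2. Of 13 retinoic acid genes Cyp26a1, which degrades retinoic acid, fell (-1.48 ± 0.34, adjusted p = 0.0069), and of 20 glycolysis and hypoxia genes Hk2 and Pfkp rose (1.01 ± 0.25 and 1.45 ± 0.40, adjusted p = 0.016 and 0.037). These 3 calls were lost without any 1 array. Of 16 neural crest genes Foxd3 alone was called. Fibroblast and feeder genes (28 tested), trophoblast genes (19), 2-cell stage genes (4), p53 targets (17), antigen presentation genes (16), cadherins and related factors (23), collagens and laminins (24), immediate early genes (15) and ribosomal proteins (10) had no call.

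The genotype difference at day 8 was set against that at day 6, which was measured on other arrays. Of the 108 genes called higher at day 8, 97 were above 0 at day 6 as well (89.8%, against 6910 of the 13807 genes tested), and 29 were higher by 2-fold or more (26.9%, against 1.94% of all genes tested). Of the 39 called lower, 35 were below 0 at day 6, and 19 by 2-fold or more (48.7%, against 1.16%). The median difference of the genes called higher was 0.16 at day 0, 0.32 at day 2, 0.65 at day 6 and 1.32 at day 8, the last being the value that chose them. Between days 6 and 8 these genes went up by a median of 1.12 in Ezh2-null and 0.36 in wild-type cells on the log2 scale. The genes called lower changed by a median of -0.01 in Ezh2-null and 0.67 in wild-type cells. Choosing genes by their day-8 difference favours such changes, so these medians are descriptions.

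**Figure D4:**
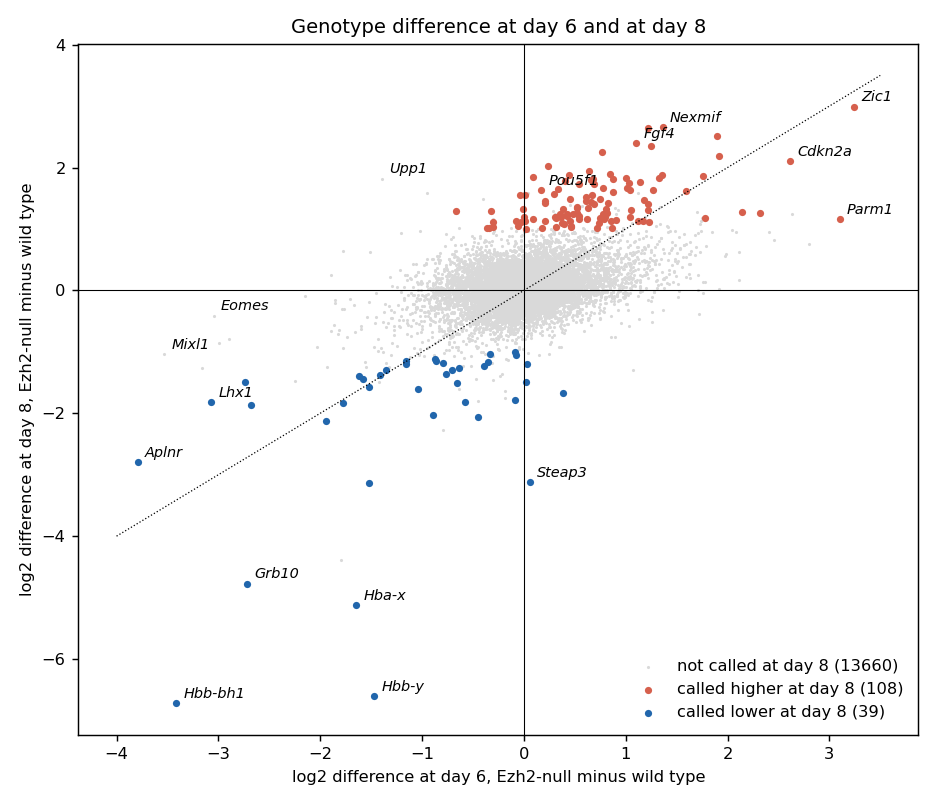
For all genes tested the log2 difference at day 6 (horizontal axis, 5 against 5 arrays) is set against that at day 8 (vertical axis, 2 against 2 arrays); colours mark the day-8 calls and the dotted line marks equal values. Zic1 and Cdkn2a lie near the line at both days, Hbb-y and Hba-x far below it, and Eomes and Mixl1 are further below 0 at day 6 than at day 8.

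The test of the change itself, the day-8 difference minus the day-6 difference, called 216 genes in limma (1.56% of the genes tested), 150 of them higher (1.09%) and 66 lower (0.478%). This count depended on the day-6 arrays more than any other result. It was 46 with wild-type and Ezh2-null replicates 1 and 2 alone at day 6, 818 with replicates 3 to 5 alone, 487 with CJ7 as the only wild type at day 6, and 4 when only arrays of days 6 and 8 entered the fit. Without wild-type replicate 1 or 2 of day 8 it was 41 or 131, and without Ezh2-null replicate 2 of day 8 it was 61. Without Ezh2-null replicate 1 of day 6 it was 428, and without Ezh2-null replicate 3 of day 6 it was 135. The day-6 arrays differ by line and by a probe-set score that puts replicates 3 to 5 of both genotypes apart from replicates 1 and 2, and the 4 day-8 arrays are on the side of replicates 1 and 2. The part of this in the counts was not tested.

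Hbb-y carried the largest negative change, -5.14 ± 0.71 (adjusted p = 3.2e-05), and was called with each choice of day-6 arrays except the fit on days 6 and 8 alone, from -3.06 with replicates 1 and 2 to -6.61 with CJ7. Hba-x changed by -3.48 ± 0.75 (adjusted p = 0.0053), but by -0.97 (adjusted p = 0.15) with replicates 1 and 2. For Hbb-bh1 the change of -3.30 ± 1.08 was not called (adjusted p = 0.072). Positive changes were led by Upp1, uridine phosphorylase, at 3.22 ± 0.67 (adjusted p = 0.0038), and by the streak and epiblast genes Eomes (2.64 ± 0.58), Tdgf1 (2.54 ± 0.55), Mixl1 (2.50 ± 0.56) and Fgf5 (2.42 ± 0.73), with adjusted p-values from 0.0053 to 0.05. At day 6 Mixl1 gave 283.0 to 1914.4 in wild type and 42.3 to 59.8 in Ezh2-null cells, so that its positive change came with a lower wild-type signal at day 8. With replicates 1 and 2 alone at day 6, the changes of Eomes, Tdgf1, Mixl1 and Fgf5 were 1.54, 1.33, 1.18 and 1.45 and none was called.

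For Pou5f1 and Phc1 the change came with a rise in Ezh2-null cells from day 6 to day 8. For Pou5f1 it came with a fall in wild type as well. Changes with other choices of day-6 arrays are not given for the genes of this paragraph. Pou5f1 went up by 0.98 in Ezh2-null cells and down by 0.48 on the log2 scale in wild type, a change in the genotype difference of 1.46 ± 0.37 (adjusted p = 0.017). Its Ezh2-null arrays of day 6 ran from 481.4 in replicate 3 to 2303.4 in replicate 4, against 2454.2 and 2515.3 at day 8. Phc1 went up by 1.38 against 0.05 (1.33 ± 0.26, adjusted p = 0.0024). For Dnmt3b the genotype difference was -1.02 at day 6 and 0.97 at day 8 (change 1.99 ± 0.37, adjusted p = 0.0016), and for Zic2 -0.67 and 1.29 (change 1.96 ± 0.36, adjusted p = 0.0016). Of the 108 genes called higher at day 8, 24 were also called higher in this test, and of the 39 called lower 8 were also called lower.

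Markers of other cell types were summed on each day-8 array. The 9 fibroblast and feeder markers, none of them at or under the array median, summed to 6774.0 and 7870.2 in wild type and 5264.6 and 5443.7 in Ezh2-null cells, and 0 of 9 were called. The 7 erythroid markers summed to 10400.3 and 12177.2 against 204.9 and 228.5, with 4 called lower. In wild type these sums were mostly Hbb-bh1, Hbb-y and Hba-x, already given above, and Gata1, Klf1 and Hba-a1 were not called. The 6 endothelial markers summed to 1069.8 and 1120.3 against 459.9 and 570.3, with 1 called lower and Cdh5 and Tie1 at or under the array median. The 5 markers of undifferentiated ES cells summed to 4119.9 and 4904.2 against 11306.1 and 12369.3, with 3 called higher. The 5 visceral endoderm markers summed to 521.9 and 770.7 against 264.8 and 505.1, with 1 called higher (Afp) and Apoa1 and Amn at or under the array median. Cardiac (650.1 to 932.3) and trophoblast markers (528.7 to 821.9) overlapped between the genotypes, and the 4 neuronal markers gave 1106.3 and 1248.4 against 1692.6 and 1706.7 with none called. The part of feeder cells in the results was not tested.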

How the data were processed

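The authors deposited 1 linear intensity per probe set and array; the method of summarisation and scaling was not given in the sources used here. Array medians lay between 50.5 and 63.0 signal units (log2 range 0.2035, under the limit of 0.3 for renormalisation), so the deposited intensities were used as they stand. Arrays have no read depth, and the number of arrays limits the precision. Of 45037 probe sets 34945 had 1 gene symbol in the platform annotation, 932 several and 9160 none, and the symbols of 34741 were matched by gene identifier to RefSeq (GRCm38.p6), which changed 0. Each of 18193 genes was represented by its brightest probe set on average over the 53 arrays. Those above the array median in at least 2 arrays (13807) were fitted on log2(value + 32) with limma 3.58.1 in R 4.3.3, with a mean for each of the 15 groups, 38 residual degrees of freedom (and 4.6 prior), with p-values adjusted by Benjamini-Hochberg over all genes tested. Groups came from the titles.

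Named are the 15 largest rises and falls among called genes whose arrays do not overlap, the 6 largest changes of each sign between days 6 and 8, the PRC2 and core pluripotency genes always named, and members of 36 gene lists; Pf4, Slc25a4 and the array values of earlier days were picked after their values were seen. The comparison, members and lists were chosen with earlier results of these data known. On simulated data the fit recovered 46 of 50 genes changed 3-fold and all changed 4-fold or more at day 8, and 43 and 48 of 50 for the change between days 6 and 8, with 13807 genes in each. The 2 day-8 arrays of a genotype share numbers across genotypes, but the deviations of same-numbered arrays correlated at -0.2, so the numbers were not read as pairs. Alternatives covered the scaling, pseudocount, filter, probe sets, spread, lines, blocks, fold minimum and arrays left out.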

Additional observations from a re-analysis of the deposited data

Results flagged for a closer look

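The genotype difference at day 8 differed from that at day 6 by the test of the change itself (limma, adjusted over all genes) for 19 genes named above or among the largest rises and falls. It was larger at day 8, or less negative, for Upp1 (3.22), Eomes (2.64), Tdgf1 (2.54), Mixl1 (2.50), Fgf5 (2.42) and Slc16a3 (2.15), and for Tcf15 (1.79), L1td1 (1.44), Fgf4 (1.29), Lhx1 (1.25) and Zfp936 (1.05). It was lower at day 8 for Hbb-y (-5.14), Hba-x (-3.48), Steap3 (-3.18), H1f2 (-2.09), Tmprss2 (-2.06), Sema3c (-2.04), Sox18 (-1.62) and Alas2 (-1.24). The count of such genes moved with the day-6 arrays used, as given above. With replicates 1 and 2 alone at day 6, Slc16a3 gave 1.36, H1f2 -0.99 and Sema3c -1.15, none of them called, and Steap3 gave -3.0 (adjusted p = 0.27). Without wild-type replicate 2 of day 8 the change of Steap3 was -0.11. Within a group, 1 Ezh2-null array at day 0 was far from the others for Zic1 (58.0 signal units), and 1 Ezh2-null array at day 6 for Afp (93.9); chance alone sets about 1 in 20 groups apart in this way.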

How the results depend on the processing

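The day-8 count of 147 calls was 86 with a 4 times larger pseudocount, 227 with array weights, 349 with no minimum fold, 298 with a 1.5-fold minimum and 232 with only the 4 day-8 arrays, and 51 to 113 without single day-8 arrays. The change between days 6 and 8 (216 calls) gave 137 with a 4 times larger pseudocount, 686 with array weights, 549 with no minimum fold, 510 with a 1.5-fold minimum, 4 with only the arrays of days 6 and 8, 487 with CJ7 alone as wild type at day 6, 46 and 818 with the day-6 arrays of replicates 1 and 2 or of replicates 3 to 5, and 41 to 428 without single arrays. The cause was not tested. The replicate block gave 184 and 301 calls, and the crossed pairing, chosen after seeing the data, 143 at day 8. No gene called in the main fit and followed through the alternatives changed the sign of its difference. Uncalled genes and list medians were not checked for this. Of the 30 largest rises and falls 14 were called in every alternative and 16 without each day-8 array. With a pseudocount of 8, Nanog, Sox17, Ctsh and Morc1 lost their calls at day 8. With the 4 times larger pseudocount Alas2, Lmo2, Tal1, Nfe2, Itga2b, Fli1, Lhx1, Foxf1, Afp, Hoxb3 and Hoxd13 fell under 2-fold and lost theirs. So did Zic2, Zic5, Lhx2, Foxd3, Smad7, Ccne1, Hormad1 and Hk2. With the mean of all probe sets Esrrb, Steap3, Foxf1, Zfpm1, Fli1, Hoxb3 and Hoxd13 lost their calls. Groups left with 1 array assume that it varies like the other groups. With 2 arrays a group, dim genes are limited by the pseudocount.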
